A study of Drosophila melanogaster with 4 samples.

Results

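Autosomal binding sites of the transcription factor Doublesex in the introns of long genes are described here, in whole prepupae of Drosophila melanogaster. A site belonged to the class when its peak summit lay off the X chromosome, over 500 bp from every annotated transcript start, in no exon, and inside at least 1 protein-coding gene of 50000 bp or longer. The rule used positions and gene models, and no signal value. It was met by 1089 of the 9154 reproducible summits (11.9%), and by 14.3% of the 7623 autosomal ones. The same rule applied to genes under 50000 bp gave 1962 summits, called shorter-gene intronic peaks. A further 1496 autosomal summits, also over 500 bp from every transcript start and in no exon, lay outside all genes and are called intergenic. Binding was measured by ChIP-seq, the sequencing of immunoprecipitated chromatin, in 4 samples of 1 group, labelled biological replicates 1 to 4 with 1 technical replicate each. All 4 were prepupae labelled 24 h of age, with males and females pooled, from a transgenic line that stably carries dsx with green fluorescent protein fused to its C terminus. Chromatin was recovered with an antibody against the fluorescent protein. Replicates 2, 3 and 4 gave rise to the reproducible list and to a larger pooled list, and replicate 1 to neither. A peak in whole animals of both sexes cannot be assigned to a tissue, a sex or an isoform, and weak binding in many cells cannot be told apart from strong binding in few. No control sample was analysed here, and read depth was unknown.

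The dsx transcript is spliced differently in males and females, and both protein forms share a DM-type DNA-binding domain but differ at their C termini. They direct sex-specific development in many tissues, often through elements that other patterning factors also use. Long fly genes are in many cases developmental regulators with large introns, and such introns commonly hold enhancers. In bab1, a repressor of abdominal pigmentation, an element in a large intron is a known direct target of Doublesex.

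The sequence at the summits is shown first, for the 10 strongest members on arms 2L, 3L and 3R that held the core of the Doublesex binding sequence, ACAATGT. Each line gives the host gene, the position in dm6 and the plus strand from 50 bp before to 50 bp after the summit, read from the RefSeq copy of the assembly. Capitals mark the core, in either orientation (ACAATGT or its reverse complement ACATTGT).
Snoo (chr2L:7973592-7973692): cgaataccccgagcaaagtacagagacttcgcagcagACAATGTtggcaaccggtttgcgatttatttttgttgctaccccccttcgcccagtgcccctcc
Snoo (chr2L:7911209-7911309): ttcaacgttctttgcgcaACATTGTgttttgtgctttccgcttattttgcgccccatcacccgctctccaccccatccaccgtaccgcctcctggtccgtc
Snoo (chr2L:7915200-7915300): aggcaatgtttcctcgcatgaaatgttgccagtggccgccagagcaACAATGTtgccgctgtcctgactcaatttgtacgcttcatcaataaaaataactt
rdx (chr3R:14007811-14007911): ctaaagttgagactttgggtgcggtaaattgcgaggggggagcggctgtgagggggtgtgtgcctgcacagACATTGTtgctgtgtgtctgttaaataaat
lilli (chr2L:2897322-2897422): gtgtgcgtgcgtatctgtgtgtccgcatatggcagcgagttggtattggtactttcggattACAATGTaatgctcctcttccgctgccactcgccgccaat
heph (chr3R:31939772-31939872): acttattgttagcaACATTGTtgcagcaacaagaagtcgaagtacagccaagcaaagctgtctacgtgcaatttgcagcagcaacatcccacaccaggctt
ds (chr2L:647742-647842): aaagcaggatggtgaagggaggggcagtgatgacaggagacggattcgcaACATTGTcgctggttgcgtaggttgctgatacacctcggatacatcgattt
osp (chr2L:14652114-14652214): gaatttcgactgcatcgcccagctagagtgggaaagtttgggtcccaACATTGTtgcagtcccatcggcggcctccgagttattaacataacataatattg
Tet (chr3L:2823728-2823828): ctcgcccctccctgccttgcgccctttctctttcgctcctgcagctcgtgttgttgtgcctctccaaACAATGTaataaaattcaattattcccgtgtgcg
nmo (chr3L:7993647-7993747): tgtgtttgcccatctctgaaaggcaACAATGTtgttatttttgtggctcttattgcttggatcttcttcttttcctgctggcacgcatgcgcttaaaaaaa
The core lay 10, 29 and 1 bp to the lower-coordinate side of the summit in the 3 Snoo sites, and at the summit base itself in osp. It lay 24 bp to the higher-coordinate side in rdx, 14 bp in lilli, 20 bp in Tet and 3 bp in ds, and to the lower-coordinate side in heph (33 bp) and nmo (22 bp). In Snoo, which encodes a Ski and Sno family regulator of signalling by TGF-beta-type ligands, all 3 sites lay in the second of the 2 introns of the host transcript. The heph gene encodes a polypyrimidine tract-binding RNA regulator, rdx an adaptor that targets the Hedgehog effector Ci for degradation, and nmo a kinase.

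Members without the core included some of the strongest. The sequences below, picked after their values were seen, carry in capitals the related sequence ACAAAGT, which differs from the core at 1 base. The rols gene encodes an adaptor for myoblast fusion. The CG33158 summit also lay in an intron of aos, a nested gene for a secreted inhibitor of the epidermal growth factor receptor.
rols (chr3L:12058443-12058543): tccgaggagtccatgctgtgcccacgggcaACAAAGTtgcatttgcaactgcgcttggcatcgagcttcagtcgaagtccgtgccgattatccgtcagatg
CG33158 (chr3L:16478758-16478858): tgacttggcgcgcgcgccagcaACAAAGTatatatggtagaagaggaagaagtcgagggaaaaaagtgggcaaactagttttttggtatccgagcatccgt
The strongest member of all, in bun, held neither sequence within 50 bp.
bun (chr2L:12529029-12529129): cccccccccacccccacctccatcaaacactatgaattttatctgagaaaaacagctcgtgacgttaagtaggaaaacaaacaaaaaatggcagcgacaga

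The strongest members lay near the top of all 4 replicate lists. Each peak has a signal value, the score of the authors' peak caller, which is not normalized between lists, so ranks within a list are used here. The bun summit (chr2L:12529079) ranked 16 of the 9154 reproducible summits with a signal value of 9613. It ranked 32, 22, 16 and 16 in replicates 1 to 4. The gene bun encodes a TSC22-family regulator of growth, and the summit lay in intron 5 of 6, 11823 bp downstream of the nearest bun start. The first Snoo summit ranked 32 in the reproducible list and 33, 32, 30 and 35 in replicates 1 to 4. The ush summit ranked 39, and 35, 30, 42 and 70 in replicates 1 to 4. The product of ush is a cofactor of GATA-family transcription factors. All of these lay in the strongest 100 of each replicate.

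Replicate 1, which did not contribute to the list, ranked several of these sites lower than replicates 3 and 4. The rols summit ranked 58 and 83 in replicates 1 and 2, and 47 and 37 in replicates 3 and 4. The CG33158 summit ranked 89 and 68 in replicates 1 and 2, and 56 and 39 in replicates 3 and 4. In heca, a gene needed by imaginal and adult progenitor cells, the strongest summit ranked 111, 80, 48 and 42 in replicates 1 to 4. The widest spread was that of the Msp300 summit, at 469, 124, 51 and 51. Msp300 encodes a nesprin-like protein that anchors nuclei to the cytoskeleton in muscle, and this site, 644 bp from a start, was its single member. The opposite order was seen in shn, a zinc-finger factor of BMP signalling, whose summit ranked 48, 87, 115 and 99 in replicates 1 to 4.

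The other hosts of the 25 strongest members included genes of axon guidance, hormone reception and cell polarity. The sli summit, in the gene of the secreted axon repellent Slit, ranked 95, 77, 58 and 59 in replicates 1 to 4. The pum summit, in the gene of the translational repressor Pumilio, ranked 91, 67, 85 and 114. The EcR summit, in the gene of the ecdysone receptor, ranked 105, 98, 158 and 63. In ds, which encodes an atypical cadherin that binds Fat, the ranks were 129, 143, 167 and 151, and in psq, a BTB-domain DNA-binding protein, 123, 150, 131 and 166. The remaining hosts were rdx, lilli, heph, pk, osp, Tet, Glut4EF and jing, with a second summit each in rols and heca and 2 more in Snoo. The second rols summit was a secondary one, meaning that a stronger summit preceded it at under 260 bp along the plus strand, as for 109 of the 1089 members. All 25 ranked within the strongest 500 of every replicate, including replicate 1, which did not contribute to the list.

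**Figure D1:**
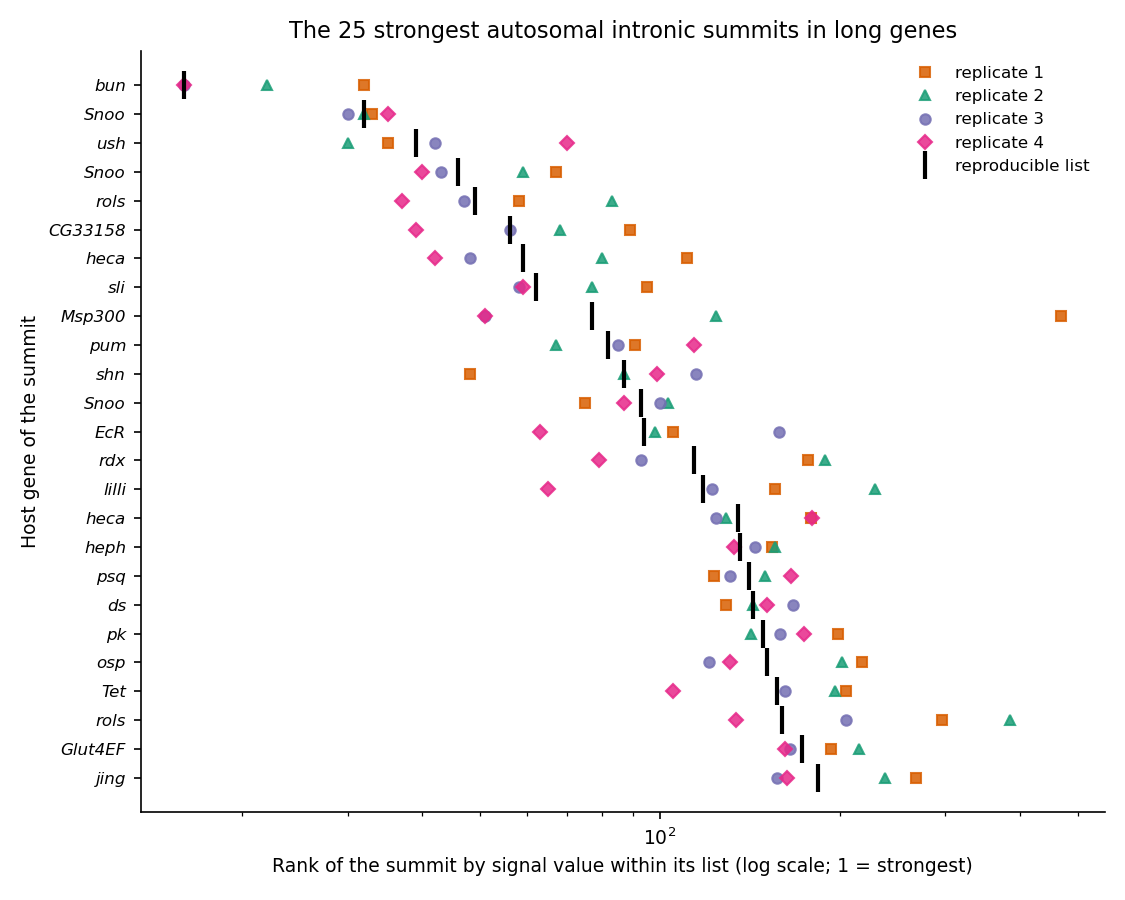
Rank by signal value of the 25 strongest members (rows, named by host gene) in each replicate's list (coloured symbols) and in the reproducible list (black bars), on a log axis. The bun summit ranks 16 to 32 in the 4 replicates, and the Msp300 summit is the one with the widest spread, from 51 to 469.

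As a class, the members had the signal of an average reproducible peak. Their median signal value was 463.3, against 463.2 for shorter-gene intronic peaks, and their median rank was 4576, against 4576.5. The range ran from 255.4 to 9613, with quartiles of 336.0 and 785.8. Members made up 13 of the strongest 100 and 55 of the strongest 500 reproducible peaks, against 20 and 104 for shorter-gene intronic peaks. Of all reproducible peaks the classes made up 11.9% and 21.4%, so both were near their own share among the strongest.

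Most members were found again in each replicate. A summit within 100 bp among a replicate's strongest 10000 was present for 74.7%, 79.5%, 87.3% and 87.0% of members in replicates 1 to 4. The shares for shorter-gene intronic peaks were 73.3%, 81.3%, 86.5% and 83.0%. The mean was 82.1% ± 6.14 for members and 81.1% ± 5.58 for shorter-gene intronic peaks (SD, n = 4). The difference of 1.06 ± 2.38 percentage points, positive in 3 of 4 replicates, was smaller than its spread (exact two-sided sign-flip permutation test, p = 0.5). Its sign turned to -0.140 with the strongest 5000 summits of each replicate and to -0.0598 with all 30000, and without replicate 4 it was 0.0908. With 4 replicates this test cannot give a p below 0.13, so no difference between the classes could pass 0.05. Of the members, 601 (55.2%) were supported by all 4 replicates, 265 by 3, 163 by 2, 52 by 1 and 8 by none. Replicate 1 is the one sample whose support was independent of the list.

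The members lay in 153 of the 238 autosomal protein-coding genes of 50000 bp or longer (64.3%), and were unevenly spread among them. The median long gene held 2 members, 45 held 10 or more and 85 held none. The 12 genes with the most were Tet (33), sbb (26), Eip75B (24), Snoo (23), heca, shn and EcR (21 each), jing, mam and hth (20 each), and psq and SKIP (17 each). Because 18 members lay in several long genes at once, the members formed 1107 gene and member pairs. A further count is that 22 members also lay inside a coding gene shorter than 50000 bp.

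The counts per gene were close between replicates. Tet, a TET-family dioxygenase gene, held 35, 34, 33 and 38 summits of the class among the strongest 10000 of replicates 1 to 4. The corepressor gene sbb held 29, 30, 26 and 26. Eip75B, an ecdysone-induced nuclear receptor gene, held 19, 25, 24 and 23, and EcR held 23, 19, 20 and 21. Snoo held 25, 25, 25 and 30. The Notch coactivator gene mam held 22, 17, 20 and 21, and the homeodomain gene hth held 18, 20, 23 and 25. Wider spreads were seen in SKIP, with 23, 15, 19 and 20, and in shn, with 21, 23, 17 and 24. Among these genes, no replicate stood below or above the others throughout. Some hosts with fewer members differed more, such as ftz-f1 with 4, 10, 7 and 11 summits and Trim9 with 2, 7, 9 and 6. Per 100 kb of intron open to the class, shn was the densest with 48.9 members, followed by sbb with 46.4, Tet with 42.0, mam with 35.4 and EcR with 35.2. The class as a whole had 5.52.

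**Figure D2:**
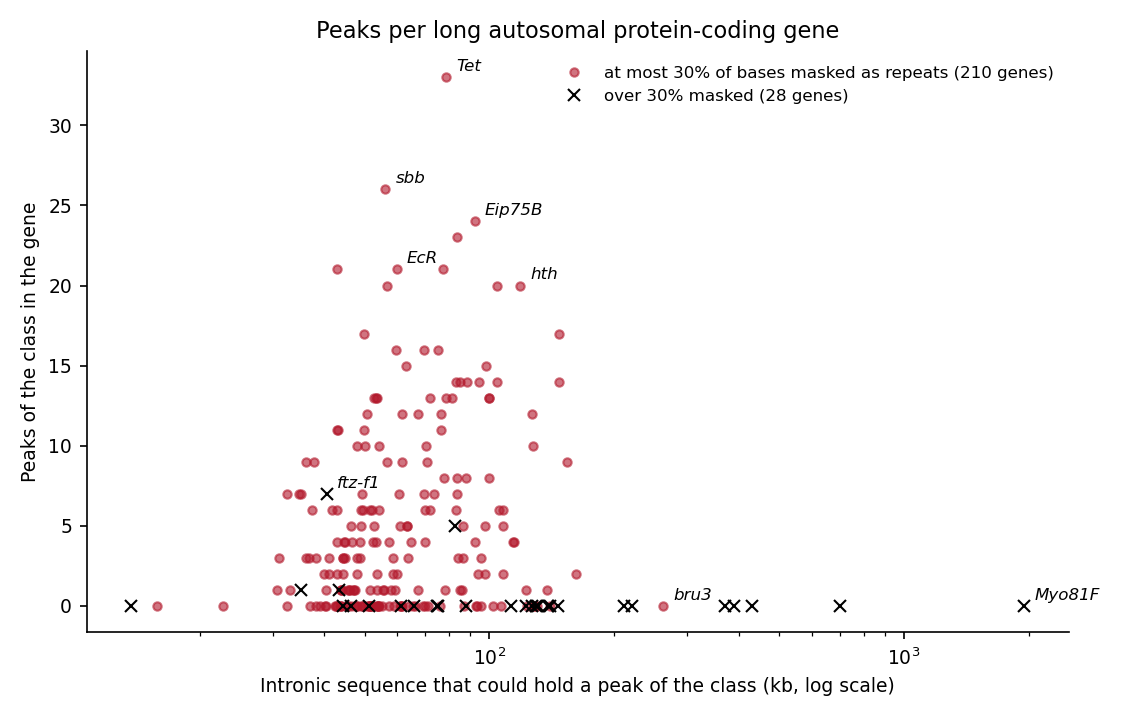
Members per long autosomal gene (vertical axis) against the intronic sequence in it that meets the positional rule (horizontal axis, kb, log scale), with genes split by the share of bases masked as repeats. Tet holds the most, with 33, and 4 of the 28 genes with over 30% masked bases hold a member. The longest gene, Myo81F, holds none.

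Genes rich in repeats held few members. Bases masked as repeats in the reference made up over 30% of 28 long genes, of which 4 (14.3%) held a member, at 0.232 members per 100 kb. Of the 210 other long genes, 149 (71.0%) did, at 7.80 per 100 kb. The 4 were ftz-f1 with 7 members, CG42747 with 5, and CG34355 and dpr3 with 1 each; ftz-f1 encodes a nuclear receptor that times the response to ecdysone. The longest genes without a member, singled out after the counts were seen, were Myo81F, Pzl, lovit, CG17684 and DIP-lambda, with 370.3 to 1945 kb of open intron each. None of these 5 had a summit of the class in any replicate's strongest 10000 or in the 30000 pooled summits. Low repeat content did not go with members in every case: bru3, an RNA-binding protein gene with 262.7 kb and 20.7% masked bases, had no member and 8 pooled summits. Whether reads from repeats could be placed was not tested.

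The list of ecdysone response genes and nuclear receptors was the most densely occupied of 9 gene lists, described here by counts and without a test. The lists were chosen with earlier results of these data known. All 6 long genes of the list of ecdysone response genes and nuclear receptors held members, 86 in all, which is 23.6 per 100 kb. Replicates 1 to 4 gave 21.7, 23.6, 23.3 and 25.2 per 100 kb, against a mean of 5.93 ± 0.381 (SD, n = 4) over all 238 long genes. EcR and Eip75B are given above. Eip74EF, an ecdysone-induced ETS factor gene, held 12 members, the strongest at rank 300, and tai, a coactivator of the receptor, held 16, the strongest at rank 896. The replicates held 15, 15, 16 and 17 summits in Eip74EF and 12, 13, 12 and 15 in tai. Eip93F, also on the list, held 6 members or 11.6 per 100 kb, the strongest at rank 3498. The ecdysone-induced gene Eip63E lay outside the list and held 8 members, or 9.58 per 100 kb.

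Regulators of pattern and signalling were also occupied above the 5.52 members per 100 kb of all long genes, of which 64.3% held a member. Of 15 long genes for patterning transcription factors, 14 held 147 members, or 14.3 per 100 kb (replicate mean 15.3 ± 0.330, SD, n = 4). Their strongest members were in psq (rank 141), jing (184), hth (338) and pnt (363), and pnt encodes an ETS factor downstream of the epidermal growth factor receptor. Of 9 long genes for developmental signalling, 8 held 77 members, or 14.1 per 100 kb (15.6 ± 1.51). In this list nmo held 12 members with the strongest at rank 189, the Wnt receptor genes fz2 and fz held 14 each, and tkv, the gene of a type I BMP receptor, held 9. The list of reported Doublesex-regulated genes had 2 long genes, too few to set against all long genes. Of these, bab1 had 16 (20, 15, 15 and 17 summits in replicates 1 to 4), the strongest at rank 597, and fru, which controls courtship behaviour, had 6 (5, 4, 6 and 8), the strongest at rank 2020.

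The remaining lists are read against the same shares, 64.3% of all long genes with a member and 5.52 members per 100 kb. Of 7 long genes for ion channels and neurotransmission, nAChRalpha6 alone held members, 3 in number with the strongest at rank 3215, and the list had 0.776 per 100 kb. The replicates gave 0.259, 0.259, 0.517 and 0.776 per 100 kb. Of 31 long genes for cell adhesion and axon guidance, 18 (58.1%, near the share of all long genes) held 80 members, or 3.22 per 100 kb (3.59 ± 0.430, SD, n = 4). Within that list sli, ds and plum stood at 21.5, 19.5 and 24.3 per 100 kb and Sema1a, with 4 members, at 3.49. RNA-binding proteins had 61 members in 11 of 13 genes, or 4.08 per 100 kb, led by pum, heph, mub and shep. Muscle and actin genes had 24 in 6 of 9, or 5.53 per 100 kb, led by rols, Msp300, RhoGEF64C and shot. That was close to all long genes on both counts, and below the 7.80 per 100 kb of the 210 genes with fewer repeats. The insulin and nutrient list had 24 members in 3 of 3 genes, or 9.37 per 100 kb, with 13 of them in Glut4EF, 10 in bun and 1 in Pde1c. The 13 in Glut4EF also lay in CG46467, a long gene that overlaps it.

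**Figure D3:**
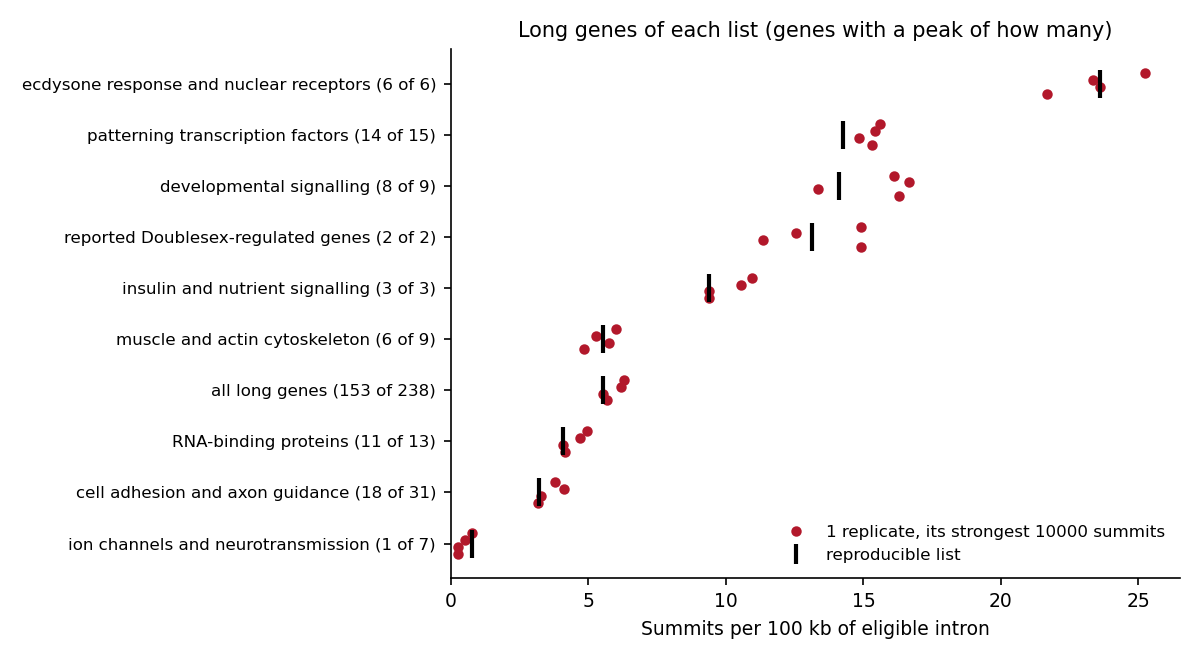
Summits of the class per 100 kb of open intron in the long genes of each list (rows; genes with a member and long genes in the list are in brackets), for the reproducible list (black bars) and each replicate's strongest 10000 summits (red points). The list of ecdysone response genes and nuclear receptors lies at 21.7 to 25.2 in the 4 replicates, and that of ion channels and neurotransmission at 0.259 to 0.776.

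Introns of long genes held fewer peaks per length of sequence than introns of shorter genes, in every replicate. Among each replicate's strongest 10000 summits, long-gene introns had 56.8, 55.3, 61.7 and 63.2 summits per Mb in replicates 1 to 4. Shorter-gene introns had 94.8, 91.6, 95.9 and 93.5 per Mb. The means were 59.3 ± 3.80 in long-gene introns and 94.0 ± 1.83 in shorter-gene introns (SD, n = 4), and the 4 values of each class did not overlap. The difference was -34.7 ± 3.33 per Mb, with the same sign in 4 of 4 replicates (exact two-sided sign-flip permutation test, p = 0.13, the smallest that 4 replicates allow). Intergenic sequence, under the same limits on starts and exons, had 51.3 ± 4.70 per Mb. In the reproducible list the density was 55.3 per Mb over 19.7 Mb of long-gene introns, against 87.9 per Mb over 22.3 Mb of shorter-gene introns.

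The ratio of these densities, 0.631 ± 0.036 (SD, n = 4), moved with the repeat content of the sequence. In windows of 100 kb with at most 30% masked bases it was 0.813 ± 0.046, from 78.9 ± 5.10 per Mb in long-gene introns and 97.0 ± 1.94 per Mb in shorter-gene introns. That limit was set after the data were seen. Limits of 20%, 40%, 50% and 70% gave ratios of 0.758, 0.708, 0.642 and 0.631. At a limit of 10%, which left 0.127 Mb of long-gene introns with 13 members, the ratio was 1.04 (exact p = 0.875). With long genes taken from 100000 bp, over all sequence, it was 0.325.

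At the same distance from a transcript start the classes were closer. Between 0.5 and 2 kb from a start, long-gene introns had 105 ± 6.98 summits per Mb and shorter-gene introns 125 ± 3.06 (SD, n = 4). Between 2 and 5 kb the values were 85.9 ± 5.16 and 85.3 ± 2.23, and between 5 and 20 kb they were 73.6 ± 5.49 and 77.6 ± 2.14. Within replicates, long-gene minus shorter-gene density was -20.2 ± 8.60 per Mb at 0.5 to 2 kb and -4.04 ± 3.73 at 5 to 20 kb, negative in 4 of 4 replicates in both ranges (exact two-sided sign-flip p = 0.13 each, the smallest possible). At 2 to 5 kb it was 0.62 ± 5.15, positive in 3 of 4 replicates (exact p = 0.75). Beyond 20 kb the values were 17.1 ± 1.09 and 21.3 ± 5.36, with a difference of -4.16 ± 5.49 (exact p = 0.375). Of the long-gene introns, 6.77 Mb lay over 20 kb from a start, against 0.494 Mb of the shorter-gene introns. In windows with at most 30% masked bases, the density of long-gene introns beyond 20 kb was 41.8 ± 3.07 per Mb, and that of shorter-gene introns was 26.2 ± 6.61, the last from 0.400 Mb with 10 reproducible peaks. There the difference within replicates was 15.5 ± 7.38 per Mb, positive in 4 of 4 (exact p = 0.13), and at 5 to 20 kb it was -1.48 ± 4.18, negative in 2 of 4 (exact p = 0.75).

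**Figure D4:**
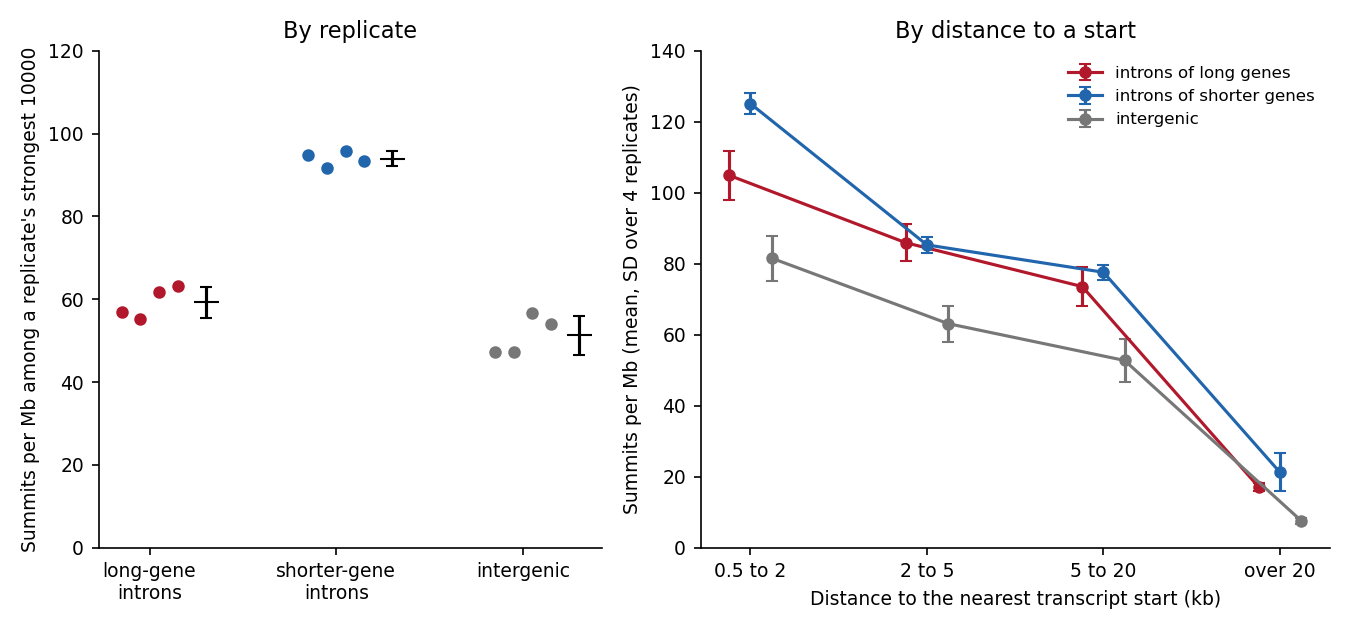
Left, summits per Mb among the strongest 10000 of each replicate (points, 1 per replicate; bars, mean and SD) in long-gene introns, shorter-gene introns and intergenic sequence. Right, mean and SD over the 4 replicates by distance to the nearest transcript start, in kb. The 4 long-gene values, 55.3 to 63.2, lie below all 4 shorter-gene values, while the classes nearly meet between 2 and 5 kb.

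Within their host genes, members were denser in first and second introns than in later ones, by counts from the reproducible list. Intron order was not separated from distance to a start. The first intron of the host transcript held 84.9 pairs of gene and member per Mb of open sequence, the second intron 76.6, and the third or later introns 37.1. In windows with at most 30% masked bases the values were 98.3, 88.9 and 55.6 per Mb. By intron length, the density was 34.2 pairs per Mb in introns under 5000 bp, 60.3 in those of 5000 to 20000 bp and 56.0 in longer ones. In windows with at most 30% masked bases these values were 34.6, 66.1 and 82.2 per Mb. The median distance of a member to any start was 6458 bp, with quartiles of 2920 and 13360 bp, and the farthest lay 53349 bp away. By arm, the density was 71.6 members per Mb on 2L, 61.3 on 2R, 57.9 on 3L and 41.3 on 3R, and chromosome 4 had 0.023 Mb of such sequence and no member. In windows with at most 30% masked bases it was 76.4 on 2L, 82.8 on 2R, 75.8 on 3L and 63.7 on 3R. Before that restriction, 3R had 6.75 Mb of open sequence, of which Myo81F and Pzl, without a member, take up 1945 and 701.6 kb.

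Members lay close to each other in many cases, described here by counts. The counts were not set against those of shorter-gene or intergenic peaks, so they do not mark the class off from these. Of the 1089, 836 (76.8%) lay within 5000 bp of another member, and 706 of 980 (72.0%) did after secondary summits were left out. Those 706 formed 202 runs, 42 of them with 5 or more members. The longest were runs of 12 members, in sbb over 16035 bp and in bab1 over 14421 bp. They were followed by 11 in jing over 24355 bp and 10 in plum over 20222 bp, and plum encodes an immunoglobulin-domain protein of neurons.

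The core ACAATGT was far more frequent at the summits than in nearby sequence. It was found no more than 50 bp from 118 of the 1089 member summits (10.8%, 95% Clopper-Pearson interval 9.05 to 12.8%), against 1.29% of flanking windows of equal length. The flanks were centred 500 bp to either side, and the higher of their shares is given. The ratio was 8.43, with 116 regions holding it at the summit alone and 12 in the flank alone (two-sided exact McNemar test, Benjamini-Hochberg adjusted over 8 motifs, p = 1.24e-21). Windows of that length tiled over all long-gene introns held it in 1.67%. The 120 cores lay at a median of 15.5 bp from the summit, and 80 of them within 25 bp. The longer Doublesex consensus, which overlaps both the core and ACAAAGT, was at 8.08% of summits and 0.735% of flanks, a ratio of 11 (adjusted exact p = 1.47e-17). Intervals and tests here cover counting error over peaks, and neighbouring peaks in a run are not independent.

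The related sequence ACAAAGT was at 7.07% of member summits and 2.20% of flanks (adjusted exact McNemar p = 1.13e-07), and tiled windows held it in 2.28%. The other motifs sought did not pass: GAGAG, bound by GAGA factor, was at 13.2% of summits and 13.6% of flanks (adjusted exact p = 0.921). Tiled windows held GAGAG in 11.7%. The sequence CACACAC was at 4.96% of summits, 4.78% of flanks and 3.57% of tiled windows. For CACGTG, an E-box, the shares were 0.459% of summits, 1.01% of flanks and 1.10% of tiled windows. CAGGTAG, bound by the early embryonic factor Zelda, was at 0.367%, 0.551% and 0.443%. TATCGATA, a DRE-like sequence, was at 0.092%, 0.275% and 0.210%. Each motif was sought on both strands.

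A search over all 8192 sequences of 7 bases, each counted with its reverse complement, put the core first. Of these, 12 (0.146%) were more frequent at the summits than in the flanks and 8 less frequent (exact McNemar test, Benjamini-Hochberg over all 8192). Each sequence was tested against the flank with its higher count. That choice favours calls of lower frequency, so the 8 were not shown to be rarer than in both flanks. ACAATGT led with an adjusted p of 1.27e-18. AACATTG, which overlaps it, came next at 7.90% of summits and 1.93% of flanks, and then AAAAATA at 15.7% and 7.99%. ACAAAGT was the fourth. At most 1 G or C was present in 3 of these 12 sequences, and the summits were poorer in G and C (38.7%) than the flanks (41.4% and 40.9%).

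**Figure D5:**
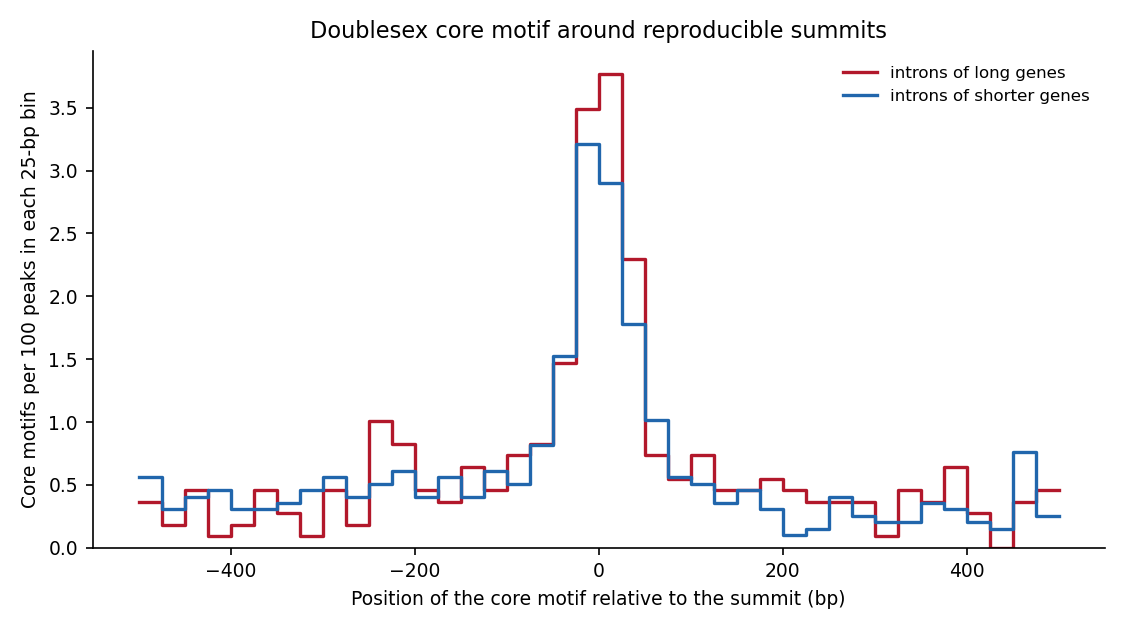
Core sequences per 100 peaks (vertical axis) in bins of 25 bp by distance from the summit (horizontal axis, bp), for long-gene and shorter-gene intronic peaks of the reproducible list. Both classes peak within 25 bp of the summit, where 80 of the 120 cores of long-gene peaks lie.

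Strong members held the core more often than weak ones. With the members split by signal value into 5 classes of 217 or 218, the core was at 21.6% of the strongest class (interval 16.3 to 27.6%), 9.17% of the next, and 7.34%, 9.63% and 6.45% of the others in order. Of the 25 strongest members 15 held it, and of the 100 strongest 30 did. Members with the core had a median signal value of 725.6, and those that lacked it 453.4. Members supported by all 4 replicates held it in 14% (11.3 to 17.0%), and the others in 6.97% (4.87 to 9.60%). By distance to a start, the core was at 12% (7.65 to 17.5%) of members between 0.5 and 2 kb, 8.81% (5.67 to 12.9%) between 2 and 5 kb, 9.77% (7.39 to 12.6%) between 5 and 20 kb and 18.8% (12 to 27.2%) beyond. The interval beyond 20 kb overlaps each of the others, and these differences were not tested. The share was 11.8% (8.41 to 16%) in first introns and 10.5% (8.41 to 12.8%) in later ones, with overlapping intervals.

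Most copies of the core in long-gene introns were not at a member. Of 3486 copies, 119 (3.41%, interval 2.84 to 4.07%) lay within 50 bp of a member summit, and 238 (6.83%) within 50 bp of a pooled summit. The share differed with the neighbouring bases, a split made after the data were seen. It was 5.27% (4.01 to 6.77%) for ACAATGTT and 2.00% (1.14 to 3.22%) for ACAATGTG, and it was 6.86% (4.64 to 9.70%) for the 423 copies of AACAATGTT. Of 4760 copies of ACAAAGT, 81 (1.70%, 1.35 to 2.11%) lay at a member.

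The share of summits with the core was higher in long-gene than in shorter-gene introns in each replicate, by a small margin. Among each replicate's strongest 10000 summits it was 7.15%, 8.82%, 11.0% and 10.5% in long-gene introns and 5.76%, 7.62%, 8.73% and 9.06% in shorter-gene introns, for replicates 1 to 4. The difference was 1.57 ± 0.492 percentage points (SD, n = 4; 4 of 4 positive; exact two-sided sign-flip permutation test, p = 0.13, the smallest possible). It was 3.25 with the strongest 5000 summits of each replicate and 0.503 with all 30000. With long genes taken from 100000 bp it had the opposite sign, -0.407. Flanks of long-gene summits held the core in 1.61% ± 0.128. In the reproducible list the core was at 10.8% of members and 9.07% of shorter-gene intronic peaks, with intervals of 9.05 to 12.8% and 7.84 to 10.4%, which overlap. It was at 9.69% (8.24 to 11.3%) of intergenic peaks. For ACAAAGT the order was the opposite, with 7.07% (5.62 to 8.76%) of members, 8.10% (6.93 to 9.40%) of shorter-gene and 8.22% (6.88 to 9.73%) of intergenic peaks. The longer consensus was at 8.08%, 7.14% and 7.95% of these classes. These differences were not tested.

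Values just inside and just outside the limits of the rule are given without a test. The shortest gene with a member was ab, at 50403 bp, with 3 members of up to 1073 in signal value. The longest gene below the limit with an intronic peak was Dyrk2, at 49649 bp, with 1 peak of 2173. Genes of 50000 to 60000 bp had 7.64 members per 100 kb, and genes of 40000 to 50000 bp had 8.15 peaks per 100 kb. The member nearest to a start lay 505 bp away with a signal value of 356.9, and the excluded peak nearest to the limit lay 499 bp away with 263.1.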

How the data were processed

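Per the deposited text notes, the authors called peaks on dm6 for each of the 4 replicates against 1 control file, and for replicates 2, 3 and 4 pooled; the reproducible list came from those 3 by an irreproducible discovery rate threshold. Which aligner, peak caller and threshold were used is not given in the sources used here; the lists other than the reproducible one hold 30000 summits each. The deposited signal value of a peak is the authors' own score and was used for ranks within a list. The deposited −log10 q-value was not used, and the deposited summit position is printed 1-based. The lists carry no read counts, so depth per sample is unknown.

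Gene models were Ensembl release 115 without annotated transposable elements, and sequence was the RefSeq copy of dm6. Density is summits per Mb of sequence that meets the positional rule. Classes were compared over replicates by exact sign-flip permutation (SciPy 1.17.1), so p-values measure the spread between these 4 samples, and summits with flanks by exact McNemar tests. Intervals are Clopper-Pearson at 95%. The text names hosts of the 25 strongest members, the 12 hosts with most members, and up to 4 genes in each of 9 lists by their strongest member. Genes named for density, repeats or missing members, repeat windows, differences by distance, tiled windows, core occupancy and per-gene replicate counts were added after values were seen. The class and the lists were chosen with earlier results of these data known. Motif scripts were tested on simulated data.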

Additional observations from a re-analysis of the deposited data

How the results depend on the processing

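The number of members followed the rule: 1770 with a gene length minimum of 30000 bp, 288 with 100000 bp, 4271 in the pooled list and 545 in the strongest 4577 reproducible peaks. The density ratio of long-gene to shorter-gene introns stayed below 1 in 17 of 18 alternatives (0.615 to 0.641 with a replicate left out, and 0.325 for genes of 100000 bp or longer). The exception was 1.04 in windows with at most 10% masked bases. The difference in replicate support turned to -0.140 percentage points with the strongest 5000 summits per replicate and -0.0598 with all 30000, and ranged from 0.0908 to 2.03 with a replicate left out. The core difference between the classes turned to -0.407 percentage points for genes of 100000 bp or longer, and ranged from 1.33 to 1.69 with a replicate left out. It moved more with the number of summits, to 3.25 with the strongest 5000 per replicate and 0.503 with all 30000. Windows of 25 and 100 bp gave 0.895 and 0.908. The causes were not tested. A window of 25 bp gave 4 sequences of 7 bases in place of 12, with ACAATGT first. The core passed the test against flanks in all 9 alternatives, with ratios of 4.39 to 9.75. With a replicate left out, the sign-flip test cannot give a p below 0.25. No groups could be paired, since all 4 samples form 1 group; the classes were paired within replicates throughout. Read depth is unknown, so no limit of detection can be given.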
